A study of Mus musculus with 48 samples.

Results

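The 10 imprinted growth genes described here are Igf2, H19, Dlk1, Meg3, Cdkn1c, Peg3, Plagl1, Grb10, Mest and Nnat, chosen by name from 18194 genes that have a probe of their own on the array. A gene was read from the probes whose platform annotation names it alone, and where it had several, the brightest over the 48 arrays gave its level. This gave a value for 9 of the 10 genes. H19, a maternally expressed noncoding RNA beside Igf2, has no value, because its probe also carries the name of Mir675, the microRNA inside it. All 9 genes with a value passed the filter on low values, more than 100 on the linear scale (6.64 on the log2 scale) in at least 1 array.

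Genomic imprinting silences a gene on the chromosome inherited from one parent, so that a single parental copy is transcribed. Many imprinted genes act on growth before birth. Genes expressed from the father's copy, such as Igf2, tend to promote growth, and genes expressed from the mother's copy, such as Cdkn1c and Grb10, tend to restrain it. Igf2 is a growth factor of fetal islets, Cdkn1c (p57) holds back cell division and Dlk1 is a transmembrane protein of immature cells. The arrays read the RNA of both parental copies together and cannot tell them apart.

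Pancreas cells of mice on the CD-1 background were sorted into 13 populations, with 3 to 5 arrays each, to follow expression from progenitors to mature cells. Beta cells carried GFP under the mouse insulin promoter and came from E15.5 (4 arrays), E17.5 (3), P0 (3), P15 (4) and 8-12 week mice (4). Alpha cells carried Venus under the Glucagon promoter and came from 8-12 week (5 arrays) and P0 mice (4). E15.5 Neurog3-null cells (4 arrays) were GFP+ cells of embryos with eGFP in place of both Neurog3 copies, and are set against E15.5 endocrine progenitors (3 arrays) of a Neurog3-eGFP transgenic line. The same line gave E15.5 acinar cells (3 arrays) and E15.5 progenitors (3), sorted on the surface proteins CD133, CD24 and CD49f. Adult duct cells, 8-12 weeks old, were sorted on CD133 (4 arrays), and E11.5 Sox9+ cells (4 arrays) on a Sox9-eGFP transgene whose GFP can outlast Sox9 itself. Cells of several animals were pooled, adult beta and alpha cells came from males, and cells with CD45 or Ter119, which mark blood cells, were depleted. The labels do not say that replicates came from separate litters, so p-values measure the spread between these samples.

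A few measurements of the whole series bear on every level below. Neurog3 was at 10.97, 10.29, 10.70 and 10.32 in Neurog3-null cells, against 13.34, 13.41 and 13.44 in endocrine progenitors, lower in the mutant cells as their label implies. The mutant cells still read Neurog3 well above the cut of 6.64, with a mean of 10.57, beside 7.79 in acinar and 4.07 in duct cells, and which part of the transcript the probe reads was not examined. Beta cell markers averaged 12.46 to 13.44 in the 5 beta populations and alpha cell markers 11.48 in adult and 11.38 in P0 alpha cells, although alpha markers were at 11.73 in E15.5 beta cells and beta markers at 11.72 in P0 alpha cells. Markers of mesenchyme averaged 11.85 in P0 beta, 11.26 in E17.5 beta, 10.18 in P0 alpha and 9.33 in E15.5 beta cells, against 5.71 to 8.12 in the other populations. Endothelial markers stood at 10.91, 10.19 and 9.66 in P0 beta, E17.5 beta and P0 alpha cells. Markers of macrophages and leukocytes averaged 11.86 in duct cells, 11.78 in Neurog3-null cells, 11.46 in adult beta cells and 10.24 in P0 beta cells, although CD45+ cells had been depleted. Array medians lay between 6.58 and 6.88.

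The genes lie in several clusters, all given on GRCm38.p6 as annotated by RefSeq. Igf2 (chr7:142650768-142666816) lies near H19 (chr7:142575530-142578146) and Cdkn1c (chr7:143458339-143461059), and Peg3 (chr7:6703892-6730462) lies far from them on the same chromosome. Dlk1 (chr12:109452485-109463336) and the noncoding RNA Meg3 (chr12:109540996-109571729) are neighbours expressed from opposite parental copies. The other members stand alone, with Mest at chr6:30733506-30748466, Nnat at chr2:157560078-157562525, Plagl1 at chr10:13090832-13131694 and Grb10 at chr11:11930499-12037428.

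Promoter sequence is shown for a few members because imprinted genes are marked by methylation of CG-rich DNA. ZFP57, a zinc finger protein, maintains that methylation and binds the methylated hexamer TGCCGC, and PLAGL1, one of the 10 gene products, binds GC-rich sites such as GGGGCCCC. RefSeq windows of 300 bases, 250 before and 50 after a transcript start, were at hand for 8 of the 10 genes, in 15 windows. Both strands were searched. TGCCGC stood in at least 1 window of Igf2, Meg3, Plagl1, Grb10, Mest and Nnat, and in 11.6% of all 32851 windows. Several of these genes have more than 1 window, so a count of genes cannot be set against that share of windows. GGGGCCCC stood in the Peg3 window alone among these 15, and in 1.08% of all windows. The first Grb10 window held 45 CG, Plagl1 26 and Dlk1 9, beside a median of 7 CG over all windows. Printed here are windows of 2 genes that fell with age in beta cells (Igf2 and Mest) and of 2 that were not called there (Meg3 and Peg3), with both motifs in capitals and GCGGCA as the hexamer on the opposite strand.
Igf2, window 2 of 4, chr7:142661222-142661521, minus strand, 14 CG: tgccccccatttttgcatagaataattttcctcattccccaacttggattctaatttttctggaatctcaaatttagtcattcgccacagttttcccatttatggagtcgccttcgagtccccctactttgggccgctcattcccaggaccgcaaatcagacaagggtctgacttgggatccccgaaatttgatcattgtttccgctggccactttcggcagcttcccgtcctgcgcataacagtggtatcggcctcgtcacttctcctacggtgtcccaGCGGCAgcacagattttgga
Mest, window 2 of 3, chr6:30737800-30738099, plus strand, 17 CG: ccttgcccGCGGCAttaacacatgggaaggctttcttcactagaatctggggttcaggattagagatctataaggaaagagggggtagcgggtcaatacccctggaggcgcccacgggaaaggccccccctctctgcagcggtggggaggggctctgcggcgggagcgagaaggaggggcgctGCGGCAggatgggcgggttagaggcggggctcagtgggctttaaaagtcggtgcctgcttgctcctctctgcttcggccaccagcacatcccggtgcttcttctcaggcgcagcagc
Meg3, window 1 of 2, chr12:109540746-109541045, plus strand, 13 CG: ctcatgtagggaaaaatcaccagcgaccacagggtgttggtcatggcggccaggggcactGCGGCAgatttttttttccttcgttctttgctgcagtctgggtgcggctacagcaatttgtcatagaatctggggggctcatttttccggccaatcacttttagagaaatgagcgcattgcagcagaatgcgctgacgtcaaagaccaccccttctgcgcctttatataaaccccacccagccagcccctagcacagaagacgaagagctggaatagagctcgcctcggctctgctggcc
Peg3, its single window, chr7:6730370-6730669, minus strand, 13 CG: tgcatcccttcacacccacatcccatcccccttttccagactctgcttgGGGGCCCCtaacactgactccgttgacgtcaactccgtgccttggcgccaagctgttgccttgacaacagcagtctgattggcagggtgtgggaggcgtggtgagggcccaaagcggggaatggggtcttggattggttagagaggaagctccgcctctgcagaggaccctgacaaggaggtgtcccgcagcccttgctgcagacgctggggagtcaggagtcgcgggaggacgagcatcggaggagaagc
The hexamer was in windows of genes that fell with age and of Meg3, which was not called, while the window of Dlk1, which fell too, held none. Each printed window holds a motif, whereas the other windows of Igf2 and Meg3 hold neither motif. A match is a description of these letters and no evidence of binding in these cells.

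Over the 13 populations, Dlk1, Nnat, Igf2 and Cdkn1c varied most, with 10.20, 8.90, 7.46 and 6.44 log2 units between their highest and lowest population means. Meg3 spanned 4.90 and Mest 4.22 units. Plagl1, Peg3 and Grb10 spanned 2.95, 2.02 and 1.83 units and were above the cut of 6.64 in all 48 arrays. P0 beta cells held the highest mean of Igf2, Dlk1, Meg3, Cdkn1c, Plagl1 and Mest, E15.5 beta cells that of Grb10 and Nnat, and P0 alpha cells that of Peg3. Duct cells held the lowest mean of Dlk1, Meg3, Peg3, Mest and Nnat. Along each gene's order of levels, 7 to 11 of the 12 neighbouring pairs of populations had overlapping arrays, so that most neighbours did not differ beyond their spread.

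**Figure D1:**
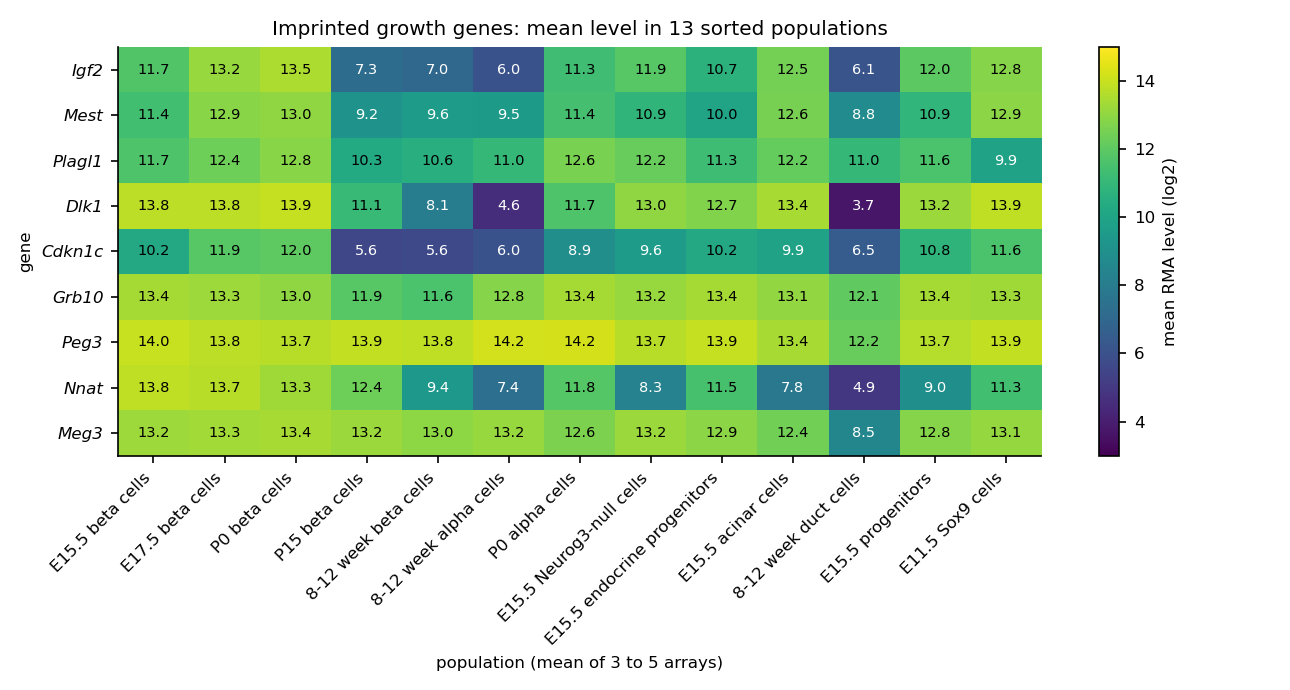
Mean RMA level (log2) of the 9 imprinted growth genes with a value in the 13 sorted populations, each the mean of 3 to 5 arrays. Igf2 and Cdkn1c are low in P15 beta, adult beta, adult alpha and duct cells, whereas Meg3 and Peg3 have their lowest means, 8.51 and 12.19, in duct cells.

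Most of these genes were lower in older beta cells. Of the 9 genes, 7 were lower in postnatal beta cells (P15 and 8-12 weeks) than in fetal beta cells (E15.5, E17.5 and P0) and none was higher, beside 11.8% of all 32078 tested probes lower and 7.75% higher. The median difference was -2.71 log2 units over the 9 genes and 0.03 over all tested probes. All 15 mesenchyme and all 12 endothelial markers were lower in the same comparison (medians -4.63 and -3.20), and their part in the result was not tested. A gene was called at an adjusted p under 0.05 (limma, Benjamini-Hochberg over all tested probes) with a log2 difference of at least 1 in size. In sorted bulk samples, fewer cells of a type and less RNA per cell cannot be told apart.

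Igf2, the ligand of the IGF1 receptor and a target of clearance by IGF2R, showed the pattern clearly. Its level had a lowest, median and highest value of 6.72, 7.14 and 7.54 over the 8 postnatal beta arrays, against 11.29, 12.97 and 13.65 over the 10 fetal beta arrays. The groups did not overlap, and the difference was -5.65 (SE 0.13, adjusted p = 1.5e-30), a 50.3-fold lower level. The less bright Igf2 probe was lower as well, by -4.83. Cdkn1c, an inhibitor of cyclin-dependent kinases, had 5.21, 5.49 and 6.19 in postnatal against 9.71, 11.56 and 12.44 in fetal beta cells. No postnatal beta array reached the cut of 6.64, so the size of the difference, -5.78 (SE 0.16, adjusted p = 4.8e-27), is not exact.

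Dlk1, a member of the Notch ligand family that is shed from the cell surface, fell less evenly. Its values were 5.75, 9.95 and 12.06 over the postnatal arrays and 13.74, 13.83 and 14.02 over the fetal arrays, a difference of -4.26 (SE 0.32, adjusted p = 1.5e-14). The fetal arrays lay within a narrow band and the postnatal ones were spread widely. In adult beta cells alone Dlk1 was at 10.07, 9.29, 5.75 and 7.17 (SD 1.97, n = 4), the widest spread of any member in any population. Its neighbour Meg3 had 12.96, 13.01 and 13.33 in postnatal against 13.14, 13.30 and 13.71 in fetal beta cells and was not called (-0.24, SE 0.13, adjusted p = 0.099). At this locus the paternally expressed Dlk1 was called and the maternally expressed Meg3, on its brightest probe, was not. Over the 11 Meg3 probes the differences ran from -1.62 to 0.30, and 1 probe was called lower. Whether the changes of Dlk1 and Meg3 differ was not tested.

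Mest, an enzyme of the alpha/beta hydrolase fold family, had 8.87, 9.42 and 9.90 in postnatal and 10.92, 12.63 and 13.21 in fetal beta cells, with no overlap (-3.02, SE 0.21, adjusted p = 1.4e-15). Nnat, a small membrane protein of the endoplasmic reticulum, had 8.79, 10.73 and 13.29 in postnatal and 13.13, 13.71 and 13.91 in fetal beta cells. Nnat was called (-2.71, SE 0.18, adjusted p = 7.6e-16) although 1 postnatal array reached into the fetal range. Both genes stayed well above the cut in postnatal beta cells, unlike Cdkn1c.

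The zinc finger factor Plagl1 and the adapter Grb10, which dampens signalling from the insulin and IGF1 receptors, changed by less. Plagl1 had 10.10, 10.30 and 10.95 in postnatal and 11.15, 12.33 and 13.03 in fetal beta cells (-1.86, SE 0.17, adjusted p = 7.0e-12). Grb10 had 11.34, 11.74 and 12.17 in postnatal and 12.85, 13.29 and 13.44 in fetal beta cells (-1.49, SE 0.09, adjusted p = 1.4e-17). All 3 probes of each gene were lower, by -3.40 to -1.86 for Plagl1 and by -2.63 to -1.49 for Grb10. Peg3, a zinc finger protein expressed from the paternal copy, had 13.71, 13.87 and 14.09 in postnatal against 13.72, 13.84 and 14.06 in fetal beta cells (0.02, SE 0.07, adjusted p = 0.77). These Peg3 values are close to the array maxima of 14.56 to 15.1, where a probe has little room to show a change.

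**Figure D2:**
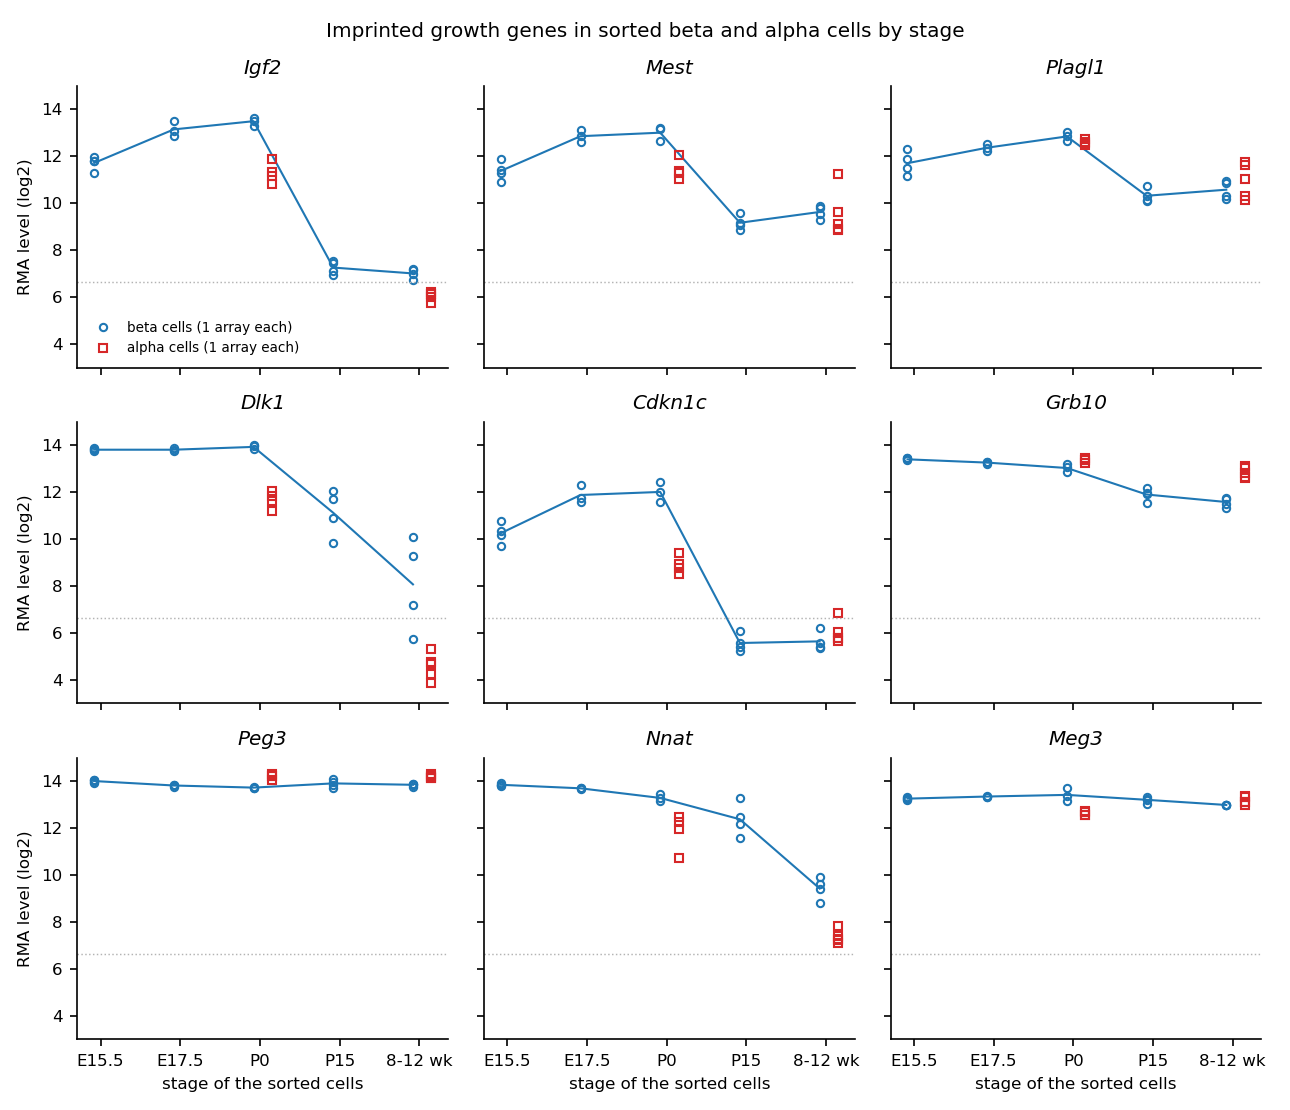
RMA level (log2, vertical axis) of 9 imprinted growth genes by stage (horizontal axis), with 1 circle for each beta array, 1 square for each alpha array, a line through the beta means and a dotted line at the cut of 6.64. Igf2, Cdkn1c and Mest drop between P0 and P15 in beta cells, and Dlk1 and Nnat are lower again at 8-12 weeks.

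The 5 beta stages placed most of this change in a single interval. Between E15.5 and E17.5, 3 of the 9 genes were higher at E17.5 and none was lower, beside 7.29% of probes higher and 2.50% lower. Igf2 was at 13.51, 12.85 and 13.08 in E17.5 against 11.97, 11.29, 11.82 and 11.79 in E15.5 beta cells (1.43, SE 0.21, adjusted p = 1.6e-06). Cdkn1c was higher by 1.62 (SE 0.26, adjusted p = 1.3e-05) and Mest by 1.49 (SE 0.33, adjusted p = 9.1e-04). Plagl1 was not called on its brightest probe (0.66), but 2 of its 3 probes were higher, by up to 1.73. In this step 12 of 15 mesenchyme markers, 12 of 12 endothelial markers and 8 of 14 cell cycle genes were higher too, and their part in the result was not tested. Between E17.5 and P0 none of the 9 genes was called in either direction, beside 3.81% of probes higher and 2.40% lower at P0. Less bright probes did pass the call there, 1 of the 2 Igf2 probes higher (1.81) and 3 of the 11 Meg3 probes lower (to -1.30). As a mean over probes 1 member was called, and the methods' t-test called only 4 probes of the whole array in this step.

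From P0 to P15, 6 of the 9 genes were lower at P15 and none was higher, beside 14.5% of probes lower and 11.0% higher. Igf2 was at 7.54, 7.44, 6.95 and 7.13 in P15 against 13.31, 13.52 and 13.65 in P0 beta cells (-6.23, SE 0.21, adjusted p = 1.8e-24). Cdkn1c was at 5.21, 6.09, 5.41 and 5.58 in P15 against 11.57, 12.02 and 12.44 in P0 beta cells (-6.44, SE 0.26, adjusted p = 1.8e-21). Both genes had thus reached their adult range by P15, with adult beta arrays at 6.72 to 7.20 for Igf2 and 5.37 to 6.19 for Cdkn1c. Mest fell by 3.84, Dlk1 by 2.82, Plagl1 by 2.53 and Grb10 by 1.13 on the log2 scale over the same step. Nnat was at 13.29, 12.16, 12.48 and 11.57 in P15 against 13.13, 13.28 and 13.44 in P0 beta cells and missed the call on size (-0.91, SE 0.29, adjusted p = 0.0090). All 15 mesenchyme, all 12 endothelial, 14 of 16 macrophage and 11 of 14 cell cycle markers were lower at P15 as well, and their part in the result was not tested. P15 cells came from males and were released by another digestion than P0 cells, and the part of sex and digestion was not tested.

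From P15 to adulthood 2 of the 9 genes were lower in adult beta cells and none was higher, beside 1.58% of probes lower and 6.23% higher. Nnat was at 9.90, 9.40, 9.60 and 8.79 in adult against 13.29, 12.16, 12.48 and 11.57 in P15 beta cells (-2.95, SE 0.27, adjusted p = 3.9e-11), with no overlap. Dlk1 was at 10.07, 9.29, 5.75 and 7.17 in adult against 9.83, 12.06, 10.89 and 11.69 in P15 beta cells (-3.05, SE 0.47, adjusted p = 4.1e-06). The Dlk1 arrays overlapped, and with the 2 populations fitted alone Dlk1 was not called (adjusted p = 0.068). In this step 15 of 16 macrophage and 6 of 15 mesenchyme markers were higher in adult beta cells, and 5 of 14 cell cycle genes were lower, whose part was not tested. The 4 steps share populations, so neighbouring steps are not independent of each other.

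Markers of cells other than beta cells, and of the cell cycle, changed between these stages as well. Beside the mesenchyme and endothelial markers, 11 of 14 cell cycle genes were lower in postnatal than in fetal beta cells. The mean mesenchyme level lay between 5.61 and 7.62 in P15 and adult beta arrays, against 8.93 to 11.91 in the fetal ones, and Col1a1, a collagen of mesenchyme, was at 12.49 even in E15.5 beta cells, against 10.07 in adult beta cells. Against E15.5 beta cells alone, where the mesenchyme level was 9.33, the same 7 genes were lower in postnatal beta cells, with Igf2 at -4.58 (adjusted p = 1.7e-23) and Cdkn1c at -4.65 (adjusted p = 3.2e-20). In E11.5 Sox9+ cells, with mesenchyme markers at 7.44 and endothelial markers at 4.84, Igf2 was at 12.82, Dlk1 at 13.86 and Cdkn1c at 11.61. Of the 15 mesenchyme markers, 8 had a mean above the cut in E11.5 Sox9+ cells, 14 in E15.5 beta cells and 15 in P0 beta cells. How much of the fetal beta cell signal came from mesenchyme was not tested.

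**Figure D3:**
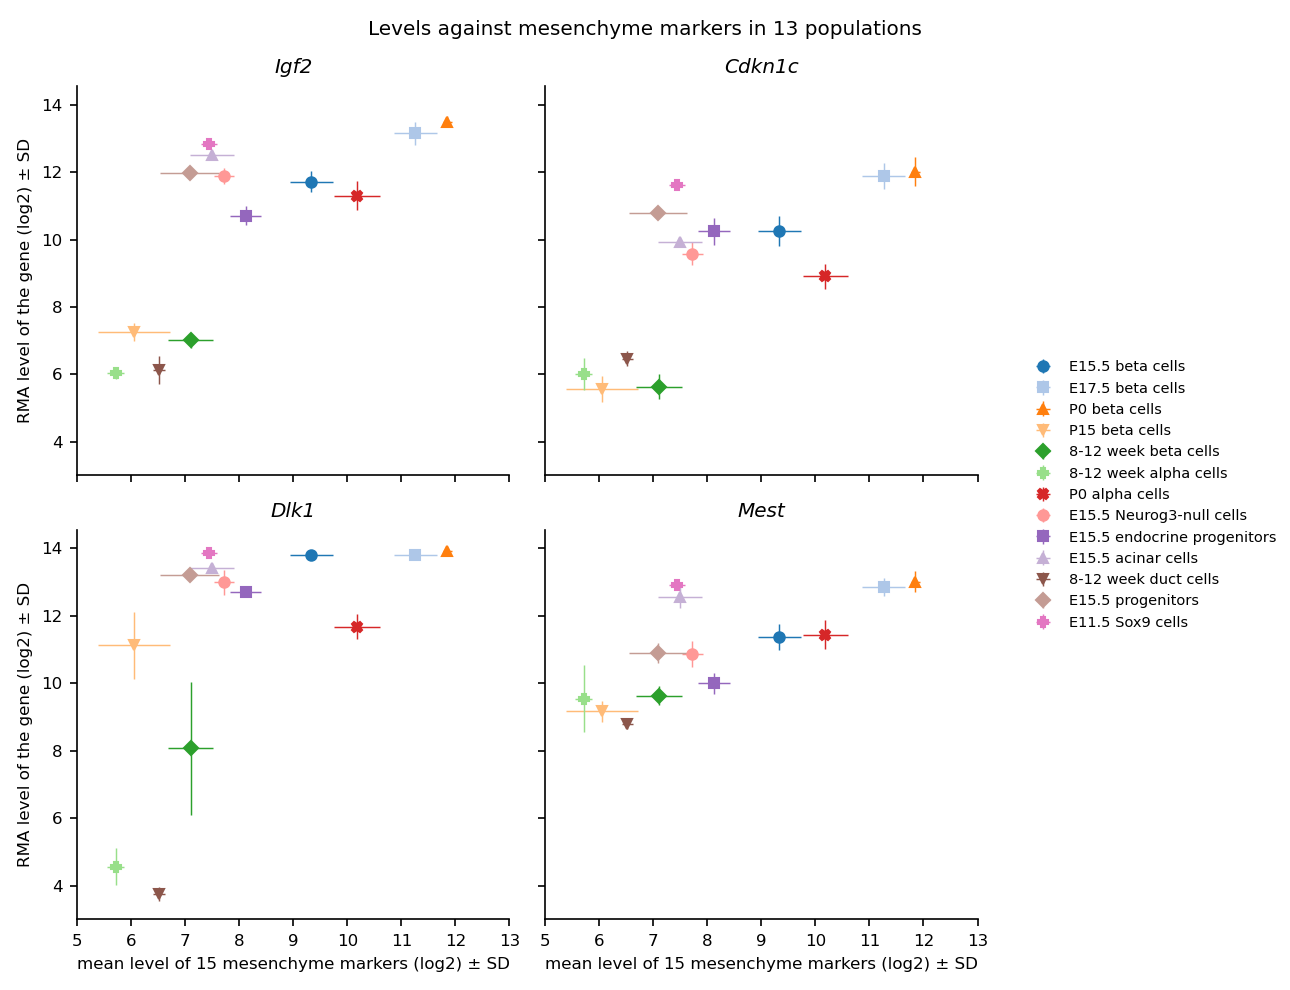
Mean RMA level (log2, vertical axis) of Igf2, Cdkn1c, Dlk1 and Mest against the mean level of 15 mesenchyme markers (log2, horizontal axis), 1 point for each of the 13 populations with bars of 1 SD over its arrays. Igf2 has r = 0.70 with the marker mean, and E11.5 Sox9+ cells combine 12.82 for Igf2 with 7.44 for mesenchyme.

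Alpha cells went the same way with age. Of the 9 genes, 6 were lower in adult than in P0 alpha cells and none was higher, beside 13.1% of probes lower and 7.70% higher. The median difference was -1.90 over the 9 genes and 0.04 over all tested probes. Dlk1 was at 3.87, 4.23, 4.74, 5.30 and 4.66 in adult against 12.05, 11.21, 11.64 and 11.83 in P0 alpha cells (-7.12, SE 0.45, adjusted p = 2.8e-16). All adult alpha values of Dlk1 were under the cut, so its size is not exact, and the less bright Dlk1 probe was lower by -3.84.

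Igf2 was at 6.20, 6.14, 5.74, 5.99 and 6.12 in adult against 11.87, 10.84, 11.16 and 11.32 in P0 alpha cells (-5.26, SE 0.18, adjusted p = 1.2e-23). Nnat was at 7.11, 7.39, 7.23, 7.80 and 7.26 in adult against 12.26, 10.70, 11.96 and 12.48 in P0 alpha cells (-4.49, SE 0.26, adjusted p = 2.1e-17). Cdkn1c was at 6.03, 6.84, 5.79, 5.65 and 5.80 in adult against 9.42, 8.78, 8.50 and 8.93 in P0 alpha cells (-2.88, SE 0.23, adjusted p = 2.8e-13). In each of these genes every adult array lay below every P0 array. Mest was also called (-1.90, SE 0.29, adjusted p = 9.1e-07), but 1 adult array, at 11.24, lay among the P0 arrays of 11.04 to 12.06. Plagl1 was lower by -1.62 (SE 0.24, adjusted p = 6.4e-07), with adult arrays spread from 10.14 to 11.76.

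Grb10, Meg3 and Peg3 were not called in alpha cells. Grb10 was at 12.62, 12.64, 12.80, 13.02 and 13.11 in adult against 13.26, 13.35, 13.46 and 13.39 in P0 alpha cells, a separated but small difference (-0.53, SE 0.12, adjusted p = 4.4e-04). Meg3 lay higher in adult alpha cells by 0.54 (SE 0.18, adjusted p = 0.012) on its brightest probe, under the size needed for a call. Of its 11 probes, 3 less bright ones were called higher, by 1.29 to 1.69, and none was called lower. As in beta cells, 14 of 15 mesenchyme, 12 of 12 endothelial, 11 of 16 macrophage and 12 of 14 cell cycle markers were lower in adult alpha cells, with a mesenchyme level of 5.49 to 5.89 in adult and 9.78 to 10.76 in P0 arrays, and their part in the result was not tested.

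The change from P0 to 8-12 weeks differed between both cell types for some members. In the interaction contrast, alpha change less beta change, 3 of the 9 genes were called positive and none negative, beside 9.79% of probes positive and 10.9% negative. Cdkn1c gave 3.49 (SE 0.35, adjusted p = 7.8e-10), Mest 1.48 (SE 0.44, adjusted p = 0.0078) and Igf2 1.23 (SE 0.27, adjusted p = 5.5e-04), so that each of them dropped further in beta than in alpha cells. The less bright Igf2 probe was called too, at 5.01, but its mean in P0 alpha cells already lay under the cut. Little room was left for it to drop in alpha cells, so the size of 5.01 is not exact. The call of Mest was lost with those populations fitted alone (adjusted p = 0.078), and 1 adult alpha array stood at 11.24 against 8.86 to 9.61 in the others. Adult values of Cdkn1c in both cell types and of Igf2 in alpha cells lie near or under the cut, which bounds how far they could drop. Grb10 (0.93, SE 0.19, adjusted p = 1.5e-04) missed the call on size with its brightest probe, while its 2 other probes were called positive, at 1.73 and 2.68. The difference of Dlk1 (-1.26, SE 0.68, adjusted p = 0.15) was not called. All 16 macrophage markers had a negative difference of maturation, and 6 mesenchyme markers a positive and 4 a negative one, whose part was not tested.

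At P0, beta cells held more of several members than alpha cells did. In all, 5 of the 9 genes were higher in P0 beta cells and none was lower, beside 11.8% of probes higher and 7.99% lower. Cdkn1c was at 11.57, 12.02 and 12.44 in P0 beta against 9.42, 8.78, 8.50 and 8.93 in P0 alpha cells (3.10, SE 0.26, adjusted p = 8.6e-12). Igf2 was higher by 2.20 (SE 0.21, adjusted p = 6.6e-11), Dlk1 by 2.25 (SE 0.51, adjusted p = 3.9e-04), Mest by 1.57 (SE 0.33, adjusted p = 1.7e-04) and Nnat by 1.43 (SE 0.29, adjusted p = 1.0e-04). The less bright Igf2 probe was higher by 4.76, a size that is not exact because its P0 alpha mean lay under the cut. The Dlk1 call rests on 1 probe, as the other was at 10.40 in P0 beta and 10.08 in P0 alpha cells (0.32, adjusted p = 0.45). The Nnat call was lost by the methods' t-test (adjusted p = 0.067). Among genes not called on their brightest probe, 1 Grb10 probe (1.42), 1 Plagl1 probe (1.28) and 2 Meg3 probes were higher in P0 beta cells and 1 Meg3 probe was lower. In the same comparison 11 of 15 mesenchyme, 7 of 12 endothelial and 15 of 16 macrophage markers were higher in beta cells, and their part was not tested.

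In adults 2 of the 9 genes were higher in beta cells and 1 was lower, beside 11.0% of probes higher and 6.23% lower. Dlk1 was at 10.07, 9.29, 5.75 and 7.17 in adult beta against 3.87, 4.23, 4.74, 5.30 and 4.66 in adult alpha cells (3.51, SE 0.45, adjusted p = 2.8e-08). Every beta array lay above every alpha array. The less bright Dlk1 probe differed by -0.16 and was not called, but its means lay under the cut in both adult populations, where a difference cannot be read. Nnat was higher in adult beta cells by 2.06 (SE 0.26, adjusted p = 1.5e-08). Grb10 was lower in adult beta cells, at 11.72, 11.76, 11.49 and 11.34, against 12.62, 12.64, 12.80, 13.02 and 13.11 in adult alpha cells (-1.26, SE 0.12, adjusted p = 4.9e-11). All 16 tested macrophage markers were higher in adult beta cells, and their part in these differences was not tested. The comparisons of beta and alpha cells use the same arrays as those of age within each cell type.

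Before birth, E15.5 progenitors differed from E11.5 Sox9+ cells in Plagl1, Mest and Nnat. In all, 1 of the 9 genes was higher and 2 were lower in E15.5 progenitors than in E11.5 Sox9+ cells, beside 4.95% of probes higher and 6.37% lower. Plagl1 was at 11.48, 11.65 and 11.69 in E15.5 progenitors against 9.18, 10.31, 10.04 and 10.09 in E11.5 Sox9+ cells (1.70, SE 0.28, adjusted p = 7.4e-06), and all 3 of its probes were higher. Mest was at 10.97, 11.14 and 10.57 in E15.5 progenitors against 12.72 to 13.03 in the 4 arrays of E11.5 Sox9+ cells (-2.02, SE 0.33, adjusted p = 7.7e-06). Nnat was lower by -2.38 (SE 0.29, adjusted p = 2.3e-08). Igf2 lay lower by -0.86 and Cdkn1c by -0.81, both under the size of a call. The less bright Dlk1 probe (-1.01) and 2 of 11 Meg3 probes were lower.

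Between E15.5 progenitors and their progeny the called members were Mest, Igf2 and Nnat. In acinar cells 1 of the 9 genes was higher and 1 lower than in E15.5 progenitors, beside 4.07% of probes higher and 5.82% lower. Mest was at 12.19, 12.65 and 12.82 in acinar cells against 10.97, 11.14 and 10.57 in progenitors (1.66, SE 0.35, adjusted p = 5.3e-04), and Nnat was lower by -1.17 (SE 0.31, adjusted p = 0.0050). The less bright Igf2 probe (1.30) and 1 Plagl1 probe (1.09) were higher too. In the acinar sort 12 of 12 endothelial markers were higher as well, and their part was not tested. In endocrine progenitors 1 of the 9 genes was higher and 1 lower than in E15.5 progenitors, near the background of 9.06% of probes higher and 10.1% lower. Nnat was at 11.73, 11.44 and 11.41 in endocrine progenitors against 9.07, 9.08 and 8.74 in progenitors (2.56, SE 0.31, adjusted p = 1.2e-08). Igf2 was at 10.53, 10.58 and 11.03 in endocrine progenitors against 11.85, 12.11 and 11.91 in progenitors (-1.24, SE 0.22, adjusted p = 1.5e-05), its lowest level in any embryonic population. In the same comparison 13 of 14 cell cycle genes were lower in endocrine progenitors, and their part was not tested.

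E15.5 beta cells showed higher levels again. They had 3 of the 9 genes higher than in endocrine progenitors and none was lower, beside 5.62% of probes higher and 3.80% lower. Nnat was at 13.84, 13.80, 13.83 and 13.91 in E15.5 beta cells against 11.73, 11.44 and 11.41 in endocrine progenitors (2.32, SE 0.29, adjusted p = 7.8e-08), its highest level in the series. Mest was higher by 1.38 (SE 0.33, adjusted p = 0.0018). Dlk1, Meg3 and Plagl1 were not called on their brightest probes. There Dlk1 differed by 1.10 without overlap (SE 0.51, adjusted p = 0.12), with SDs of 0.06 in E15.5 beta cells and 0.12 in endocrine progenitors. The SE rests on the spread in all 13 populations, among them adult beta cells with an SD of 1.97. The less bright Dlk1 probe was at 10.80 in E15.5 beta cells and 7.88 in endocrine progenitors (2.92, adjusted p = 6.9e-09). So were 5 of 11 Meg3 probes higher, by up to 1.66, and 1 Plagl1 probe, by 1.49. Igf2 was higher by 1.01 (SE 0.21, adjusted p = 2.9e-04), just past the size needed, and fell short of it at 0.94 when each array was centred on its median, and at 0.91 to 0.98 when any of 5 arrays was left out (endocrine progenitor replicates 1 and 2, E15.5 beta replicates 1, 3 and 4). Here 8 of 15 mesenchyme, 9 of 12 endothelial and 10 of 16 macrophage markers were higher in beta cells, and their part was not tested. The mean of the cell cycle genes was 9.09 in E15.5 beta cells and 9.56 in endocrine progenitors.

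In cells without Neurog3, the factor that starts endocrine differentiation, Igf2 was higher and Nnat lower, and members were called about as often as all probes. Of the 9 genes, 1 was higher and 1 lower in Neurog3-null cells than in endocrine progenitors, near the background of 14.7% of probes higher and 16.4% lower. Nnat was at 8.75, 7.97, 8.22 and 8.29 in Neurog3-null cells against 11.73, 11.44 and 11.41 in endocrine progenitors (-3.22, SE 0.29, adjusted p = 5.1e-12). Igf2 was at 11.79, 11.61, 12.10 and 12.03 in Neurog3-null cells against 10.53, 10.58 and 11.03 in endocrine progenitors (1.17, SE 0.21, adjusted p = 7.7e-06). Both levels were near those of E15.5 progenitors, 8.96 for Nnat and 11.96 for Igf2. The less bright Igf2 probe showed no difference (0.00, SE 0.32), so the Igf2 call rests on 1 probe. The less bright Dlk1 probe (1.42) and 1 Plagl1 probe (1.91) were higher in Neurog3-null cells.

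The 3 tested probes of Peg3 all lay lower in the mutant cells, but by unlike amounts. The brightest was at 13.69 in Neurog3-null cells and 13.94 in endocrine progenitors (-0.26, adjusted p = 0.045, not called). These values are close to the array maxima of 14.56 to 15.1, where a probe has little room to show a change. A less bright probe was at 11.01 in Neurog3-null cells and 12.50 in endocrine progenitors (-1.48, adjusted p = 5.0e-08). The dimmest tested probe was at 8.06 in Neurog3-null cells and 11.55 in endocrine progenitors (-3.50, adjusted p = 1.2e-05). This dimmest probe was lower in postnatal than in fetal beta cells, 9.24 and 11.31 (-2.07, adjusted p = 2.1e-05), and in adult than in P0 alpha cells, 9.03 and 10.64 (-1.61, adjusted p = 0.014), with overlapping arrays in both cases. Of the 11 Meg3 probes, 1 was called lower in both settings, by -2.13 in Neurog3-null cells and -1.62 in postnatal beta cells. Which transcripts these probes read was not examined. Neurog3-null cells also had all 16 tested macrophage markers higher (median 6.06), as were 12 of 14 cell cycle genes and 7 of 12 endothelial markers, whose part in these results was not tested.

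**Figure D4:**
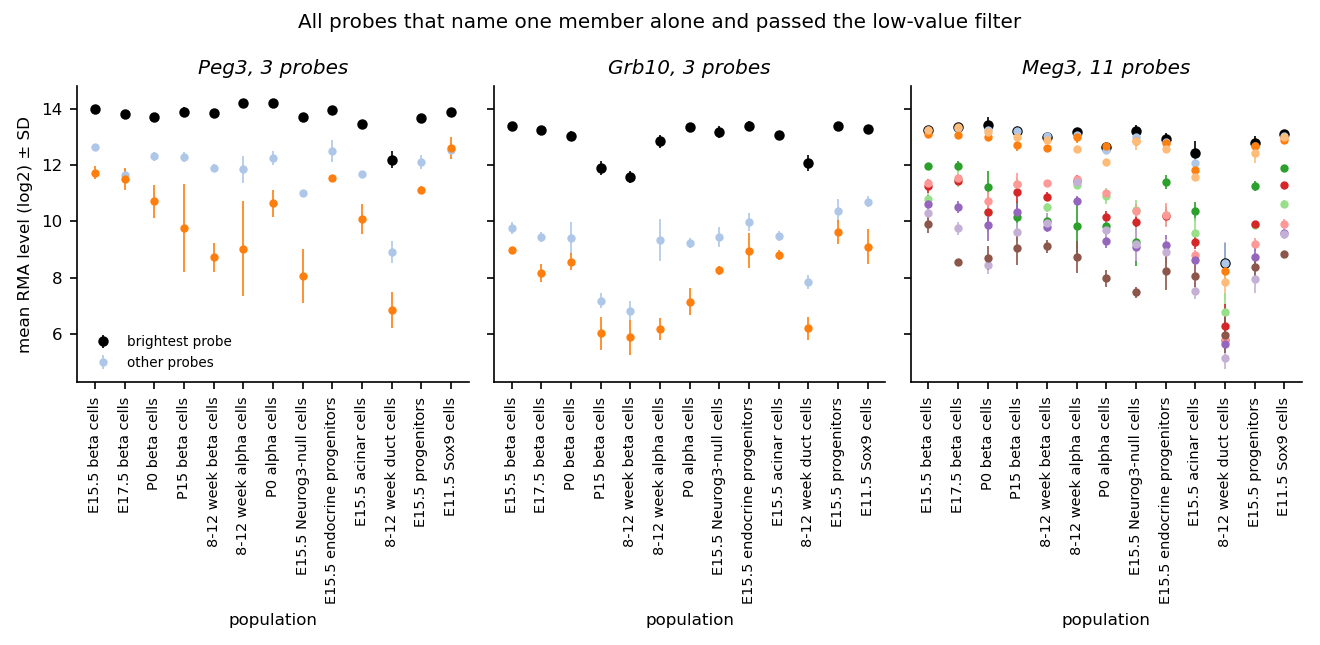
Mean RMA level (log2, vertical axis, bars 1 SD over 3 to 5 arrays) of every tested probe of Peg3 (3), Grb10 (3) and Meg3 (11) in the 13 populations along the horizontal axis, with the brightest probe in black and 1 colour for each other probe. The brightest Peg3 probe lies at 13.69 in Neurog3-null cells and 13.94 in endocrine progenitors, where the dimmest lies at 8.06 and 11.55. All Meg3 probes are lower in duct cells than in E15.5 progenitors.

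Most members were lower in adult duct cells than in E15.5 progenitors, with duct means from 3.74 for Dlk1 to 12.19 for Peg3. In this comparison 8 of the 9 genes were lower in duct cells and none was higher, beside 17.4% of probes lower and 16.1% higher. The median difference was -4.02 over the 9 genes and -0.11 over all tested probes. Dlk1 was at 3.54, 3.64, 3.74 and 4.02 in duct cells against 13.25, 13.21 and 13.14 in progenitors (-9.46, SE 0.51, adjusted p = 1.7e-18). All duct values of Dlk1 were under the cut, so the size of its difference is not exact. The less bright Dlk1 probe was lower by -2.66. Its neighbour Meg3 was at 7.68, 8.82, 9.33 and 8.23 in duct cells against 12.74, 12.59 and 13.07 in progenitors (-4.29, SE 0.21, adjusted p = 7.3e-20). All 11 Meg3 probes were lower, by -5.47 to -2.42, so that here both sides of the Dlk1 and Meg3 locus were lower.

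Igf2 was at 6.31, 6.66, 5.88 and 5.73 in duct cells against 11.85, 12.11 and 11.91 in progenitors (-5.81, SE 0.21, adjusted p = 6.3e-24). Cdkn1c was lower by -4.33, Nnat by -4.02, Mest by -2.10 and Grb10 by -1.30. The duct means of Igf2, Cdkn1c and Nnat, 6.14, 6.47 and 4.94, were under the cut, so the sizes of their differences are not exact. Peg3 was at 12.37, 12.34, 12.31 and 11.74 in duct cells against 13.62, 13.66 and 13.72 in progenitors (-1.48, SE 0.11, adjusted p = 1.4e-14), and its less bright probes fell by 3.20 and 4.27. Plagl1 was the exception, at 10.87, 11.03, 11.32 and 10.85 in duct cells against 11.48, 11.65 and 11.69 in progenitors (-0.60, SE 0.28, adjusted p = 0.065). All 16 tested macrophage markers were higher in duct cells (median 6.45) and all 14 cell cycle genes were lower (median -3.54), and their part was not tested.

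**Figure D5:**
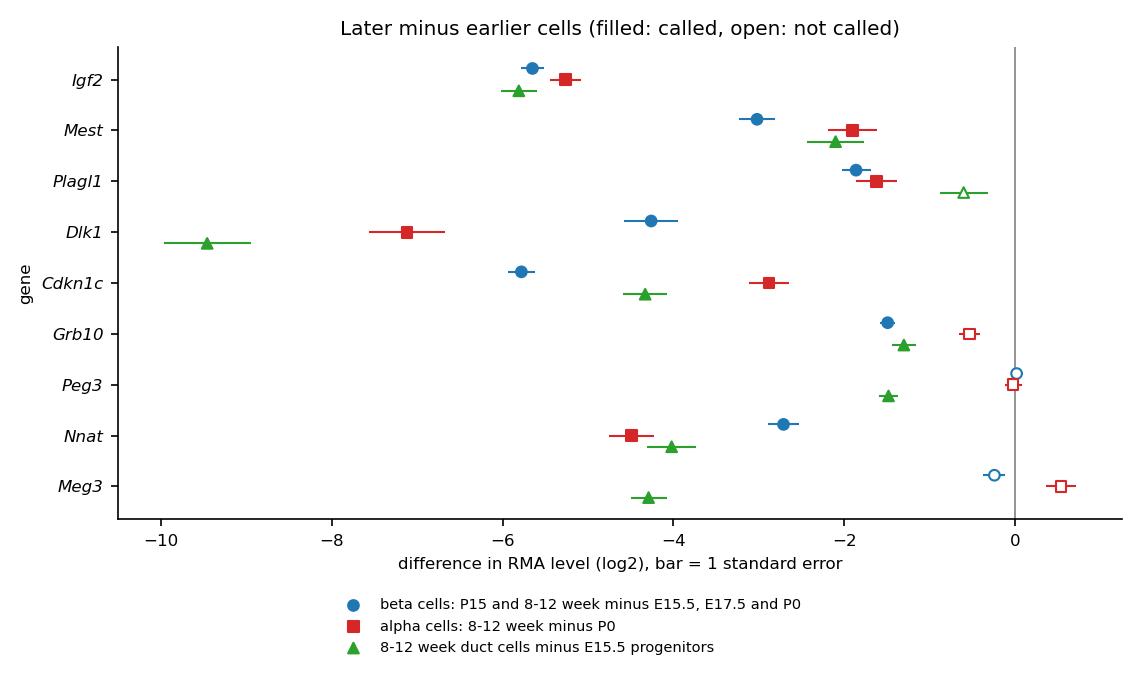
Difference in RMA level (log2, horizontal axis) of the 9 imprinted growth genes between later and earlier cells, in beta cells (circles), alpha cells (squares) and duct cells against E15.5 progenitors (triangles), with bars of 1 standard error of the limma fit, filled where called. Most points lie below 0, among them -5.65 for Igf2 in beta cells, -7.12 for Dlk1 in alpha cells and -9.46 for Dlk1 in duct cells. Adult alpha and duct values of Dlk1 lie under the cut, so the sizes of these Dlk1 differences are not exact.

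Members resembled each other to different degrees over the 13 population means. Igf2 and Cdkn1c had r = 0.95, Igf2 and Dlk1 0.91, Igf2 and Mest 0.91, and Meg3 and Peg3 0.91. Neighbours on chromosome 12 were less alike, with r = 0.62 for Dlk1 and Meg3, and Peg3 and Plagl1 had r = 0.06. These values describe 13 points that share stage, sort and markers of other cell types. Igf2 had r = 0.85 and Cdkn1c 0.77 with the mean of the cell cycle genes, and 0.70 and 0.69 with that of the mesenchyme markers.

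The genes most like each member were searched among 14404 genes over the same 13 means. Meg3 was most like Rian (r = 0.97), with 1110038F14Rik (0.96) and Mirg (0.96) next. Rian and Mirg are noncoding RNAs of the same locus, at chr12:109603945-109661716 and chr12:109734981-109749458. Igf2 was most like Fbln1 (0.96), a matrix protein that is also on the mesenchyme list, then Cdkn1c and Nrep (both 0.95). Cdkn1c was most like Fbln1 (0.96), Igf2 and Serpinh1 (both 0.95), a chaperone of collagen. Dlk1 was most like Ubr7 (0.95), Emid1 (0.94) and Xist (0.93), the noncoding RNA of the inactive X chromosome. The P15 and adult beta cells and the adult alpha cells came from males, and the part of sex in this likeness was not tested. Peg3 was most like Cxxc4, Rian and Rad17 (all 0.95), and Grb10 like Ccdc8 (0.97), 1700048O20Rik (0.96) and Ing1 (0.94). Nnat was most like 1500009L16Rik (0.96), Robo1 and Abcb10 (both 0.93), and Mest like St6galnac3, Gng10 (both 0.94) and Gjc1 (0.91). Plagl1 had the weakest matches, Nid2 (0.89), Aqp1 and Cd34 (both 0.88), and Cd34 is on the endothelial list.

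Other imprinted genes changed in both directions. Of 66 listed, 58 had a value and 55 were tested. In postnatal against fetal beta cells 15 were lower and 4 higher (median -0.23), beside 11.8% of all probes lower and 7.75% higher. Dcn, a proteoglycan of the matrix, was at 6.05 in postnatal and 12.13 in fetal beta cells (-6.08, adjusted p = 1.0e-20). Peg10, a gene of retrotransposon origin, was at 5.70 in postnatal and 11.67 in fetal beta cells (-5.98, adjusted p = 4.6e-15), and Klf14 and Asb4 fell by 3.16 and 2.78. In adult against P0 alpha cells the counts were again 15 lower and 4 higher (median -0.34), beside 13.1% and 7.70% of probes, led by Peg10 (-5.80), Dcn (-5.68), Tfpi2 (-4.37) and Mkrn3 (-3.15).

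Peg10, Nap1l5 and Zdbf2 were, like Nnat, higher in endocrine progenitors than in E15.5 progenitors and in Neurog3-null cells. In endocrine progenitors against E15.5 progenitors 9 of the 55 were higher and 10 lower, beside 9.06% and 10.1% of probes, with Peg10 at 12.44 in endocrine progenitors and 6.44 in progenitors (adjusted p = 1.3e-08), Nap1l5 higher by 5.39 and Zdbf2 by 3.71. In Neurog3-null cells against endocrine progenitors 9 of the 55 were higher and 12 lower, near the background of 14.7% and 16.4% of probes, with Peg10 at 5.29 in Neurog3-null cells and 12.44 in endocrine progenitors (-7.15, adjusted p = 2.2e-11), Zdbf2 lower by -5.04 and Nap1l5 by -4.62. Both comparisons use the same endocrine progenitor arrays. In E15.5 progenitors against E11.5 Sox9+ cells 4 were higher and 12 lower, beside 4.95% and 6.37% of probes, led by Peg10 (-6.15), Nap1l5 (-5.86) and Calcr (-4.82), while Kcnq1 was higher by 4.16. In duct cells against E15.5 progenitors 10 of the 55 were higher and 13 lower, near the background of 16.1% and 17.4% of probes, among them Mirg (-4.29), the noncoding RNA beside Meg3, and Ndn (-4.07), while Qpct was higher by 4.41.

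Genes around Igf2 in the IGF pathway mostly fell with age too. Of 20 listed, 19 were tested, and in postnatal against fetal beta cells 10 were lower and none higher (median -1.14), beside 11.8% of all probes lower and 7.75% higher. Igfbp3 and Igfbp4, secreted proteins that bind IGFs, fell by 5.33 and 4.94. Igf2bp3 and Igf2bp1, which bind Igf2 mRNA, fell by 4.53 and 3.49, with Igf2bp3 at 6.73 in postnatal and 11.26 in fetal beta cells. In adult against P0 alpha cells 10 were lower and 1 higher (median -1.54), beside 13.1% and 7.70% of probes, led by Igfbp3 (-6.18) and Igf2bp3 (-5.92). In duct cells against E15.5 progenitors 5 of the 19 were higher and 6 lower, beside 16.1% and 17.4% of probes, with Igf2bp3 at -5.98 and Igf2bp1 at -4.61. In Neurog3-null cells against endocrine progenitors 5 of the 19 were higher and 3 lower, beside 14.7% and 16.4% of probes, with the IGFBP protease Pappa2 at -4.37 and the ligand Igf1 at 3.70. Igf1 was also higher in adult than in P15 beta cells, 10.44 and 6.72 (3.72, adjusted p = 4.0e-09), a step in which 15 of 16 macrophage markers were higher and whose relation to them was not tested.

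Among genes that maintain imprints, Zfp57 and Uhrf1 were lower with age in both cell types. Of 22 listed, 18 were tested, and in postnatal against fetal beta cells 5 were lower and none higher (median -0.43), beside 11.8% of all probes lower and 7.75% higher. Zfp57 was at 5.53 in postnatal and 9.16 in fetal beta cells (-3.63, SE 0.25, adjusted p = 2.3e-15). Uhrf1, which brings the maintenance methyltransferase to replicating DNA, and the demethylase Tet1 fell by 2.26 each, and the histone methyltransferase Setdb1 by 1.16. In adult against P0 alpha cells 4 were lower and none higher, beside 13.1% and 7.70% of probes, with Uhrf1 at -3.79 and Zfp57 at -1.18. Zfp57 was higher in P0 beta than in P0 alpha cells, 9.63 and 7.28 (2.35, SE 0.41, adjusted p = 1.0e-05), and its change with age differed between them (2.96, SE 0.54, adjusted p = 4.3e-05), in the direction of a further drop in beta cells. In duct cells against E15.5 progenitors 9 were lower and none higher, beside 17.4% and 16.1% of probes, led by Uhrf1 (-3.54), in the comparison in which all 14 cell cycle genes were lower.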

How the data were processed

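The authors hybridised amplified RNA to 48 Affymetrix mouse arrays and normalised them by RMA (R 2.11.1). The deposited values are log2 levels of 45101 probes. RMA levels compare populations and count no molecules, NuGEN amplification preceded hybridisation, and abundant transcripts can saturate a probe. The platform annotation named 1 gene for 34958 probes, several for 932 and none for 9211.

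One model of 13 population means was fitted with limma 3.58.1 in R 4.3.3 to the 32078 probes above 100 on the linear scale in at least 1 array, with 35 residual and 3.55 prior degrees of freedom. Populations in a pooled group had equal weight. The methods' t-test was an alternative, as were other normalisations, filters, array weights, a replicate block and leaving out arrays, and the fit was tested on simulated data. A gene is represented by its brightest probe with 1 gene name. The genes named besides the members are the 3 most like each member by Pearson r and, of each list, up to 4 called genes with the largest difference. The members and lists were chosen with earlier results of these data known. Same-numbered replicates correlated in all 3 pairs only for E15.5 progenitors and E11.5 Sox9+ cells (r = 0.106 to 0.148), and what these numbers mark is not stated. The arrays' number limits the precision. The file gives no detection calls, so differences from levels under 6.64 are not exact in size.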

Additional observations from a re-analysis of the deposited data

Results flagged for a closer look

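Among 72 sets of 4 or 5 arrays of a member in a population, 2 held an array far from the others, and chance alone marks about 1 set in 20. Peg3 was at 11.74 in replicate 4 of adult duct cells, where the nearest of the other arrays was at 12.31. Nnat was at 5.18 in replicate 1 of adult duct cells, where the nearest was at 4.89, all under the cut of 6.64.

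The change from P0 to 8-12 weeks differed between alpha and beta cells by the interaction contrast (limma) for 3 members. The difference, alpha change less beta change, was 1.23 for Igf2 (adjusted p = 5.5e-04), 3.49 for Cdkn1c (adjusted p = 7.8e-10) and 1.48 for Mest (adjusted p = 0.0078). The less bright Igf2 probe gave 5.01, a size that is not exact because its P0 alpha mean lay under the cut. With those populations fitted alone, the Mest call was lost (adjusted p = 0.078).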

How the results depend on the processing

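Of 135 differences of the members, 55 were called. They were recomputed under the alternative settings, some of which covered a single comparison, and under 48 that each left out an array. The called differences kept direction and call in 1053 of 1066 values, and 13 values of 5 differences lost the call with the same direction. These were Igf2 in E15.5 beta cells against endocrine progenitors (0.99 after quantile normalisation, 0.94 with medians centred, 0.84 as the mean over probes, 0.91 to 1.17 with an array left out), Igf2 in Neurog3-null cells (0.59 as the mean over probes), Dlk1 from P15 to adult beta cells (adjusted p = 0.068 with those populations alone, 0.18 by the methods' t-test), Nnat between P0 beta and alpha cells (adjusted p = 0.067 by that test) and Mest in the difference of maturation (adjusted p = 0.078 with those populations alone). Of the differences not called, 27 values became called, among them Peg3 in Neurog3-null cells as the mean over probes (-1.75).

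Counts of called members moved to 1 in adult against P15 beta cells (those populations alone, and the methods' t-test), to 1 in P0 against E17.5 beta cells (mean over probes), and to between 2 and 4 in Neurog3-null cells when an array was left out (4 without endocrine progenitor replicate 3). Counts of all called probes moved to 1830 (E17.5 against E15.5 beta cells), 4 (P0 against E17.5), 1394 (adult against P15) and 1785 (acinar cells against progenitors) by the methods' t-test, to 1228 for P0 against E17.5 with those populations alone, and there to between 1218 and 2411 when an array was left out (1218 without P0 beta replicate 2). The median r of the genes most like a member was 0.95, and 0.92 over the 48 arrays.

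With the replicate block, the counts of called members stayed at 7 in postnatal beta cells, 6 in adult alpha cells and 8 in duct cells, and changed in none of the other comparisons. Same-numbered pairs had correlations from -0.417 to 0.302.

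Signs turned only in differences that were not called, none over 0.72 in size. After quantile normalisation Cdkn1c was at -0.00 in E15.5 beta cells against endocrine progenitors. With array medians centred, Peg3 was at 0.09 in alpha cells with age, Dlk1 at -0.04 from E15.5 to E17.5, Grb10 at -0.05 in endocrine progenitors, Cdkn1c, Peg3 and Grb10 at -0.06, -0.01 and -0.05 in E15.5 beta cells against endocrine progenitors, and Mest at -0.03 in adult beta against alpha cells (-0.09 with the replicate block). With array weights, Dlk1 was at -0.03 from E15.5 to E17.5, Cdkn1c at -0.09 from P15 to adult, and Peg3 and Grb10 at -0.03 and -0.08 in E15.5 beta cells against endocrine progenitors. As the mean over probes, Peg3 was at -0.72 in postnatal beta cells, Meg3 at -0.06 from E15.5 to E17.5, Dlk1, Meg3, Plagl1 and Grb10 at -0.26, -0.54, -0.00 and 0.05 from E17.5 to P0, Meg3 and Peg3 at 0.24 and -0.26 from P0 to P15, Grb10 at -0.36 in endocrine progenitors and -0.05 in E15.5 beta cells, Meg3 at -0.16 in Neurog3-null cells, Grb10 at 0.42 between P0 beta and alpha cells, and Peg3 at 0.09 in the difference of maturation. Against E15.5 beta cells alone, Peg3 was at -0.13 in postnatal beta cells.

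Leaving out arrays turned the sign of Grb10 in endocrine progenitors (-0.06 to 0.10), of Cdkn1c (-0.18 to 0.23), Peg3 (-0.03 to 0.10) and Grb10 (-0.09 to 0.08) in E15.5 beta cells against endocrine progenitors, of Dlk1 from E15.5 to E17.5 (-0.04 to 0.03), of Cdkn1c (-0.09 to 0.35) and Meg3 (-0.08 to 0.21) from E17.5 to P0, of Cdkn1c (-0.12 to 0.24) and Peg3 (-0.12 to 0.00) from P15 to adult, of Peg3 in postnatal beta cells (-0.01 to 0.06) and in alpha cells with age (-0.07 to 0.02), and of Mest in adult beta against alpha cells (-0.09 to 0.51). The methods' t-test was not run for the difference of maturation, and the mean over probes gives no count over all probes.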
